A study of Mus musculus with 16 samples.

Results

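Lymphocyte genes were read in adipose tissue as a list of 36 genes of B cells, T cells and natural killer (NK) cells. The list was chosen by name, with earlier results of these data known. Of the 36 genes, 35 had a named probe on the array, and all 35 passed the filter on dim probes, among 25105 genes and unnamed probes that were tested. Cd8b1 had no named probe and was not analysed here. The 35 measured genes comprised 15 of B cells, 16 of T cells and 4 of NK and cytotoxic cells. Blk, Pax5 and Tcf7 passed the filter only through the white fat groups, so their being measured at all rested on the depot in which they were high.

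B cells recognise antigen through a membrane immunoglobulin that signals through the Cd79a and Cd79b chains, and T cells recognise it through a receptor that signals through the Cd3 and Cd247 chains. NK cells use activating and inhibitory surface receptors and kill with granzymes. In adipose tissue lymphocytes lie scattered among the adipocytes, in clusters within visceral fat, and in the lymph nodes that are embedded in some white fat pads.

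White (WAT) and brown (BAT) adipose tissue came from female mice, from wild-type controls and from mice with an adipose-specific knockout of GR, the glucocorticoid receptor, which the gene Nr3c1 encodes. Its RNA was read on 16 one-colour arrays, 4 for each of 4 groups: WAT control (CTL_WAT), WAT knockout (AdipoKO_WAT), BAT control (CTL_BAT) and BAT knockout (AdipoKO_BAT), which the submitters call biological replicates. The labels used here do not give the Cre driver, strain, age, treatment or fat pad, nor whether WAT and BAT samples share an animal. A level here is the log2 of a probe's processed signal relative to the 75th percentile of its array, so 0 is the 75th percentile and levels of different genes are not set against each other. Per array, 66.7% to 83.6% of the probes were clearly over background by the software's flag, called well above background here, and the number of arrays limits the precision.

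The sequence at the start of a few members is shown first, as a description. RefSeq promoters (GRCm38.p6, 250 bases before to 50 after the start) were given for 25 of the 36 genes. The 5 printed here are those of a divergent pair of T cell receptor genes, of the T cell kinase Lck, and of the B cell genes Blnk and Cd22, which hold the motifs of B cell regulators. Cd3g (chr9:44980382-44980681, minus strand) and Cd3d (chr9:44981536-44981835, plus strand) start 1355 bases apart and point away from each other. The first start of Lck lies at chr4:129573592-129573891, minus strand, that of Blnk at chr19:40994172-40994471, minus strand and that of Cd22 at chr7:30878979-30879278, minus strand. Capitals mark matches to any of 5 motifs searched on both strands.
Cd3g: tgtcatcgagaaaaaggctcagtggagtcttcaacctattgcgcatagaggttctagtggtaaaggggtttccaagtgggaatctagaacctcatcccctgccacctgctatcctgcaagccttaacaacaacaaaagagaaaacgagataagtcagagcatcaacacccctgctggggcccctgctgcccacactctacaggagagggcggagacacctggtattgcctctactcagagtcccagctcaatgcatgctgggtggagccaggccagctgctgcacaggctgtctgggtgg
Cd3d: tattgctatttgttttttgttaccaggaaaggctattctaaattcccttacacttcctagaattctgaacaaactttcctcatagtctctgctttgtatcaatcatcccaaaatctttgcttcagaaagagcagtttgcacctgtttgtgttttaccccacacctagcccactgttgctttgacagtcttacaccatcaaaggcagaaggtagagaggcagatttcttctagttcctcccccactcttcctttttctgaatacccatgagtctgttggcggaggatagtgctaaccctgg
Lck: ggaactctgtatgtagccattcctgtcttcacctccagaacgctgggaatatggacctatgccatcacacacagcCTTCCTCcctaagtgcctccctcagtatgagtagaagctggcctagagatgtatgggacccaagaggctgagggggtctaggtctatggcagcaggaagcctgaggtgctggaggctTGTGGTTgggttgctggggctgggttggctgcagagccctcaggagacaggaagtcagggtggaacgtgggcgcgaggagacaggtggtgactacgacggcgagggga
Blnk: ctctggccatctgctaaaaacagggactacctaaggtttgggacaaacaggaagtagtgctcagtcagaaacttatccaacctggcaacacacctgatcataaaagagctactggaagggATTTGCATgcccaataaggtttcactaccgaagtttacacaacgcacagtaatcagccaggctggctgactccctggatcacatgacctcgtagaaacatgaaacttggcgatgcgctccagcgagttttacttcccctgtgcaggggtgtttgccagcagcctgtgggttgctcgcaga
Cd22: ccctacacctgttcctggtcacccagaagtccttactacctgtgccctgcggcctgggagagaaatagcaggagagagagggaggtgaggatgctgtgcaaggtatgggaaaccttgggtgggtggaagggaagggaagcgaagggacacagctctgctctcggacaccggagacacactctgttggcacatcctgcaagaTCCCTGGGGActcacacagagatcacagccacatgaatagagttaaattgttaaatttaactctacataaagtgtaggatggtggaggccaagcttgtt
The octamer ATGCAAAT, the motif at which Pou2af1 assists Oct factors, was found among the members in the promoter of Blnk, on the strand opposite to the one printed, and in 1.74% of 32851 promoters of this length. The Ebf motif, TCCC and GGGA with 2 bases between, which reads the same on both strands, was found in Cd22 and in 0.904% of promoters. The Ets motif GAGGAAG was found in 4 of the 25 genes (Cd37, Cd5, Lck and Zap70) and in 13.6% of promoters, and the Runx motif TGTGGTT in 4 (Lck, Il7r, Gzma and Ncr1) and in 5.27%. The Tcf and Lef motif CTTTGAA was found in Cd27 and in 5.14% of promoters. The Cd3g and Cd3d windows held none of the 5. A gene was counted when any of its starts held the motif, while the shares are per promoter, so the 2 are not measured alike. A match is a description of letters in this window.

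Several libraries stood apart. The arrays of WAT knockouts 1 and 2 differed by an SD of 0.0998 on the log2 scale over 7069 bright probes, against 0.0877 from the scatter of repeated spots, while every other pair of arrays differed by at least 0.187. They were averaged to 1 sample, called knockout 1-2, so n = 3 for WAT knockouts and 15 samples in all. Genes of the intestinal epithelium were high in WAT controls 1 and 4, with a list level of 6.12 and 4.95 against -1.58 to 0.24 in the other WAT samples, where a list level is the median deviation of its genes from their means over the 15 samples. Adiponectin (Adipoq) was at 5.63 in WAT knockout 1-2 and 6.47 in WAT knockout 3 against 7.30 to 8.41 in the other WAT samples. Ucp1, the brown fat uncoupling protein, was at 8.21 to 8.99 in BAT and at -5.24 to -1.10 in WAT, so the depot labels matched their marker, and leptin (Lep) was at -1.85 to -1.08 in BAT. Nr3c1 differed by -0.66 ± 0.19 (SE) in WAT knockouts against controls and by -1.03 ± 0.18 (SE) in BAT knockouts, with adjusted p = 0.21 and 0.0816 by limma. Both genotype groups were separate in each depot, at 1.36 to 1.64 against 1.93 to 2.56 in WAT and at 1.29 to 1.76 against 2.33 to 2.70 in BAT.

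Lymphocyte genes differed more among the WAT samples than most genes did. In WAT the 35 members spanned a median range of 5.67 on the log2 scale from the lowest to the highest of the 7 samples, against 1.54 for all genes and probes tested. In 30 of the 35 the range was over 3, against 10.8% of all tested. In BAT the median range was 1.38, against 1.07 for all, and no member spanned over 3, against 2.33%. As the list was chosen with earlier results of these data known, these ranges describe it and are not a test.

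The list level of the 35 genes stood at -0.05, -0.46, 3.32 and 2.56 over WAT controls 1 to 4 and at 4.57, 4.34 and -1.11 in WAT knockouts 1-2, 3 and 4. It stood at -1.76, -1.83, -1.86 and -1.81 over BAT controls 1 to 4 and at -0.67, -1.30, -1.63 and -1.75 in BAT knockouts 1 to 4. Both genotypes in WAT thus held samples with high and with low lymphocyte levels, and the lowest WAT sample was a knockout. WAT knockout 1-2 was the highest WAT sample for 30 of the 35 genes, and WAT knockout 4 was the lowest for 24. In BAT, knockout 1 was the highest of the 8 samples for 32 genes.

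**Figure D1:**
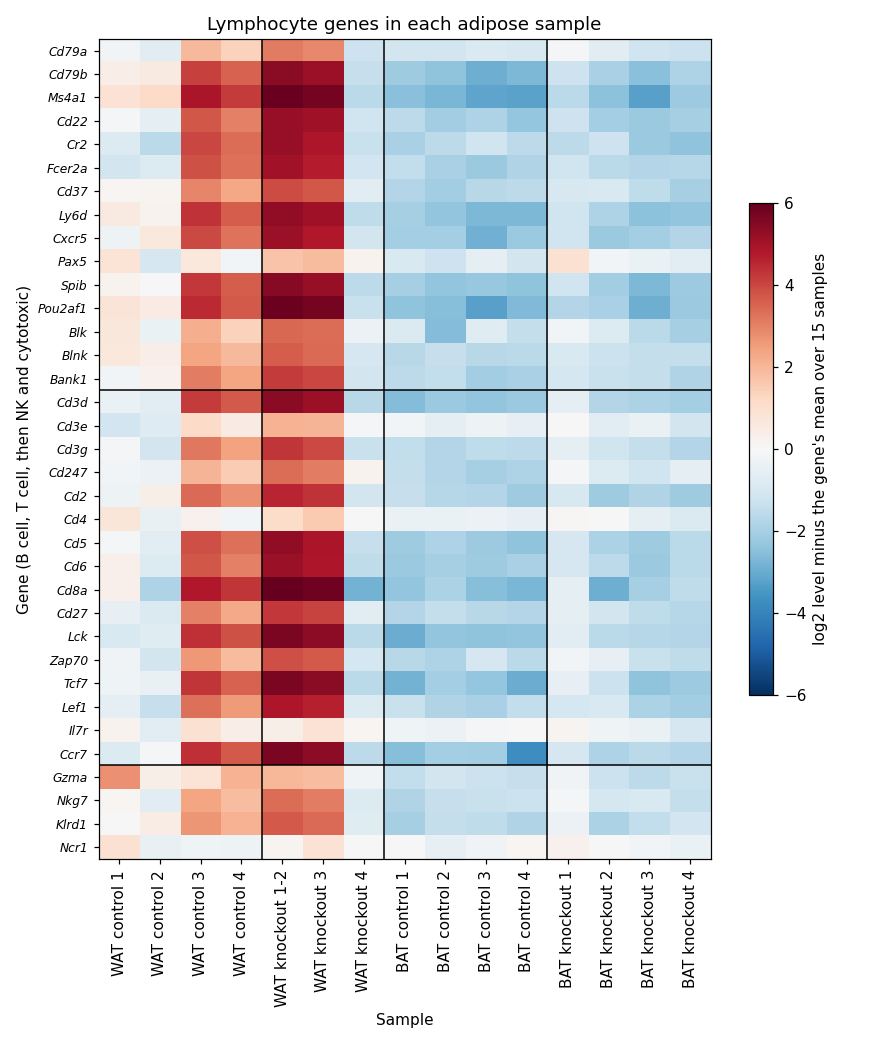
Levels of the 35 measured lymphocyte genes in each of 15 samples (columns), as the log2 level minus the gene's mean over the samples (colour, from -6 to 6); horizontal lines separate B cell, T cell and NK and cytotoxic genes, and vertical lines separate the groups. WAT controls 3 and 4 and WAT knockouts 1-2 and 3 are red in most rows, and WAT knockout 4 and all BAT samples are blue in most.

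B and T cell genes followed each other from sample to sample. The B cell list was at 0.21, 0.14, 3.82 and 3.26 in WAT controls 1 to 4 and at 5.16, 4.81 and -1.17 in WAT knockouts 1-2, 3 and 4. The T cell list was at -0.25, -0.71, 3.36 and 2.65 in the WAT controls and at 4.71, 4.49 and -1.22 in the WAT knockouts. The median over the 4 NK and cytotoxic genes was at 0.51, -0.05, 1.60 and 1.97 in the controls and at 2.68, 2.47 and -0.47 in the knockouts. Of these 4, Nkg7 and Klrd1 were highest in WAT knockout 1-2, and Gzma and Ncr1 in WAT control 1. Fewer cells of a type and less RNA per cell cannot be told apart in RNA of whole tissue.

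**Figure D2:**
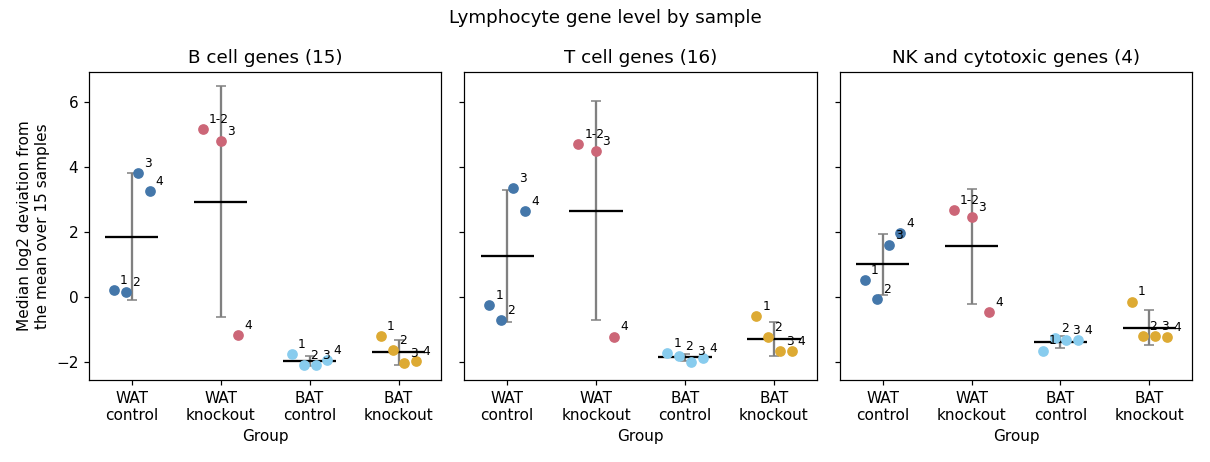
List level (median log2 deviation from each gene's mean over 15 samples) of the 15 B cell, 16 T cell and 4 NK and cytotoxic genes in each sample; points are samples with their replicate number, the horizontal line is the group mean and the bar is 1 SD. WAT knockout 4 lies near the BAT samples in the B and T panels, at -1.17 and -1.22.

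Lists of other cell types moved across the same WAT samples. The 12 genes of lymph node stroma and high endothelial venules, which include the lymphocyte attractants Ccl19, Ccl21a and Cxcl13, were at 0.17, -0.12, 2.73 and 2.16 in WAT controls 1 to 4 and at 4.35, 4.16 and -0.37 in WAT knockouts 1-2, 3 and 4. That list also holds the lymphotoxin genes Lta and Ltb, which lymphocytes themselves express, so it is not independent of the lymphocyte genes. Proliferation genes were at 1.72, 0.71, 1.66 and 1.67 in the controls and at 3.44, 3.18 and -0.48 in the knockouts. The 14 measured adipocyte genes ran the other way in the knockouts, at -2.19, -1.24 and 0.78, and were at 0.18, 0.31, -0.12 and -0.29 in the controls. Mesothelial genes, which mark the lining of visceral fat, were at 4.26, 3.78, 2.54 and 3.57 in the controls and at -1.25, -0.12 and 2.35 in the knockouts. Erythroid genes were at -3.14 and -2.01 in knockouts 1-2 and 3 and at 0.10 to 1.12 in the other WAT samples. The part of these lists in the lymphocyte levels was not tested.

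**Figure D3:**
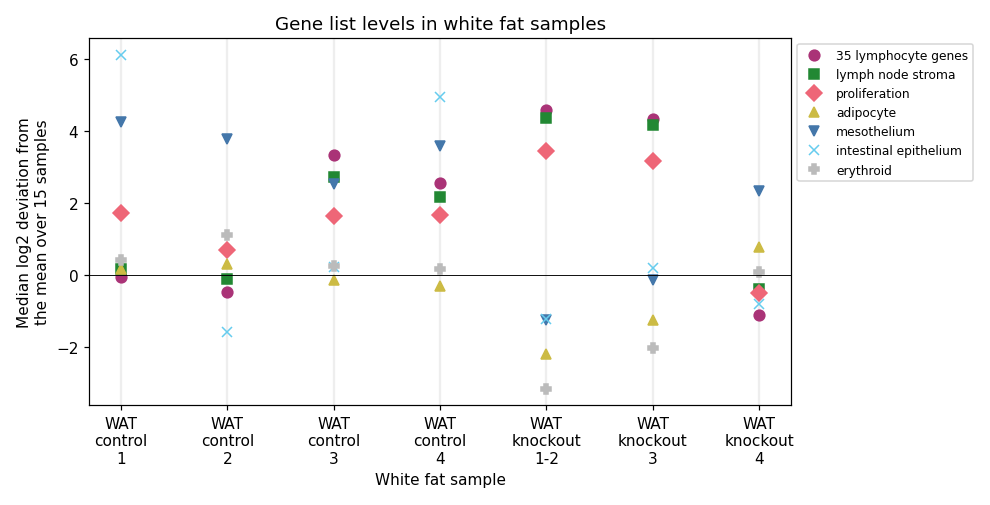
List levels (median log2 deviation from the mean over 15 samples) in the 7 WAT samples for the 35 lymphocyte genes and 6 lists of other cell types or states. The lymphocyte and lymph node stroma symbols lie close together in each sample, while the adipocyte level is lowest in knockout 1-2, at -2.19. The lymph node stroma list includes Lta and Ltb, which lymphocytes also express.

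Lymphocyte genes were lower in BAT than in WAT. Between control samples all 35 were lower in the mean, where 56.3% of all genes and probes tested were higher, with a median log2 difference of -3.14 against 0.11 over all tested, and 22 passed the test as lower (limma, adjusted p under 0.05), where 14.3% of all genes and probes tested were called lower. The calls comprised 11 of 15 B cell, 8 of 16 T cell and 3 of 4 NK and cytotoxic genes. For 27 of the 35 the BAT and WAT controls did not overlap, where 18.5% of all tested were lower without overlap. Between knockout samples all 35 were again lower in the mean, where 44.6% of all were higher, by a median of -4.36 against -0.09 over all, and 30 passed, where 13.9% were called lower. These were 13 B cell, 14 T cell and 3 NK and cytotoxic genes. Blk and Tcf7 are among the calls in both genotypes, and Pax5 in neither. Since the filter kept these genes only through the white fat groups, their lower levels in BAT are described and not taken as support. Only 7 of the 35 were without overlap in the knockouts, where 10.7% of all tested were. The 35 differences kept their sign under quantile scaling, array-median scaling and normexp correction, except for Ncr1, which was above 0 in the controls under the array median. With the deposited value table Cd4 was above 0 in the knockouts, at 0.26.

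Both counts changed when single samples were left out. The control count of 22 became 23, 29, 9 and 10 without WAT controls 1, 2, 3 and 4, and 13, 11, 11 and 10 without BAT controls 1, 2, 3 and 4. Of all genes and probes tested, 33.3% were called in either direction in the main control fit. That share was 32.3%, 32.5%, 28.1% and 26.4% without WAT controls 1 to 4, and 27.7%, 27.6%, 27.0% and 28.2% without BAT controls 1 to 4. The knockout count of 30 became 1 without WAT knockout 1-2, 1 without WAT knockout 3, and 19 without BAT knockout 3 or BAT knockout 4. The share of all called in either direction was 30.6% in the main knockout fit. It was 18.8% without WAT knockout 1-2, 17.9% without WAT knockout 3, and 25.3% and 25.6% without BAT knockouts 3 and 4. With only the 2 groups compared in the fit the knockout count was 2, where 11.9% of all were called in either direction. With the slide as a block the control count was 12, where 31.3% of all were. Without WAT controls 1 and 4, which held the intestinal transcripts, the control count was 7, where 21.0% of all were called. The median difference of the members stayed below 0 in each of these fits. The main fit shared 1 spread per gene over the 4 groups, and the groups differed in spread. For Ms4a1 the SD was 4.31 (n = 3) in WAT knockouts and 0.69 (n = 4) in BAT knockouts. The SE and adjusted p of a depot difference thus do not measure the spread of its 2 groups alone.

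**Figure D4:**
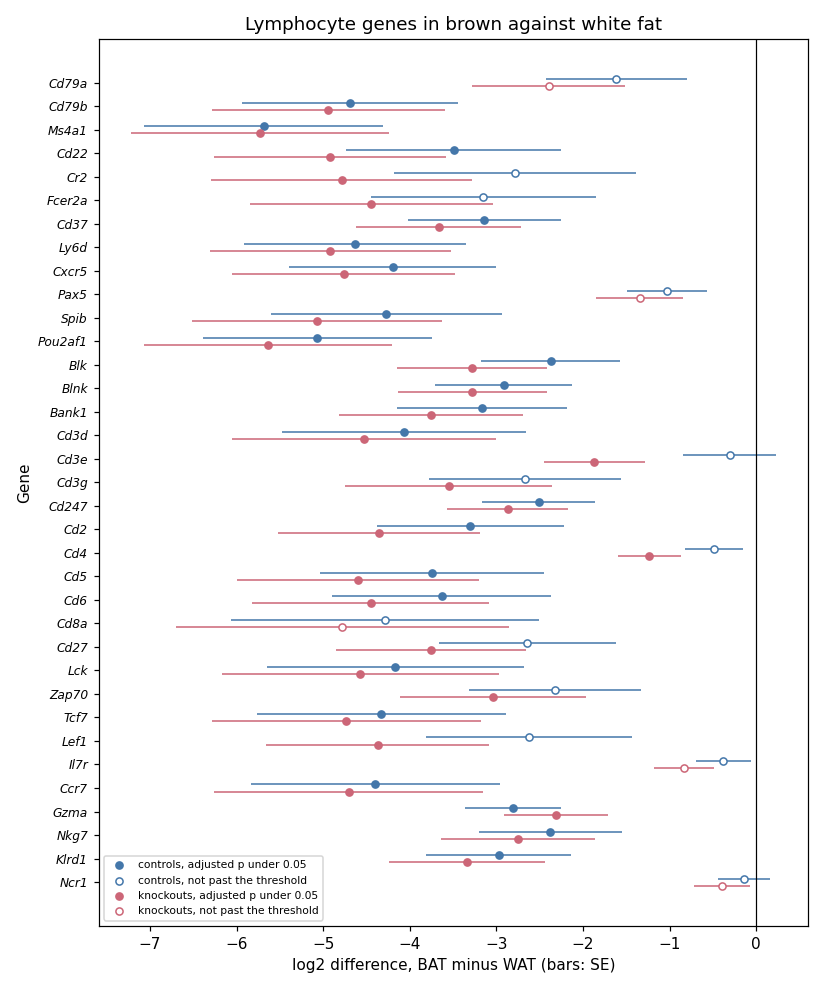
Log2 difference of BAT minus WAT (x axis) for the 35 lymphocyte genes in controls (blue) and knockouts (red); bars are 1 SE, and filled symbols passed an adjusted p of 0.05 in limma. All symbols lie below 0, and Ncr1, Cd3e, Il7r and Cd4 lie nearest to it in the controls, at -0.14, -0.31, -0.38 and -0.49.

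Among the surface proteins of B cells the depot difference was largest for Ms4a1. Ms4a1, which encodes the B cell antigen CD20, was at 0.33, 0.65, 4.36 and 3.68 in WAT controls 1 to 4 and at 5.43, 5.21 and -2.14 in WAT knockouts 1-2, 3 and 4. Ms4a1 in BAT was at -3.02, -3.27, -3.70 and -3.73 in controls 1 to 4 and at -2.12, -3.0, -3.78 and -2.68 in knockouts 1 to 4. No BAT control reached a WAT control, and the difference was -5.69 ± 1.38 (SE; adjusted p = 0.00602) in the controls, or 51.5-fold lower in BAT, and -5.73 ± 1.49 (SE; adjusted p = 0.0107) in the knockouts. The control means were 2.26 ± 2.06 (SD, n = 4) in WAT and -3.43 ± 0.35 (SD, n = 4) in BAT. Cd79a, a signalling chain of the B cell receptor, was at -3.33, -3.87, -1.21 and -1.81 in WAT controls 1 to 4 and at -0.05, -0.28 and -4.43 in WAT knockouts 1-2, 3 and 4. Cd79a in BAT was at -4.26, -4.25, -4.04 and -4.11 in controls 1 to 4 and at -3.29, -3.78, -4.39 and -4.47 in knockouts 1 to 4. Its WAT controls 1 and 2 lay just above the BAT controls and WAT knockout 4 lay below 3 of the 4 BAT knockouts, and neither depot difference passed, at -1.61 ± 0.82 (SE; adjusted p = 0.151) in controls and -2.40 ± 0.88 (SE; adjusted p = 0.0544) in knockouts. Cd22, an inhibitory co-receptor that binds sialic acid, was at -1.66, -2.16, 2.13 and 1.40 in WAT controls 1 to 4 and at 3.63, 3.48 and -2.78 in WAT knockouts 1-2, 3 and 4. Cd22 in BAT was at -3.16, -3.71, -3.47 and -3.92 in controls 1 to 4 and at -2.84, -3.63, -3.86 and -3.59 in knockouts 1 to 4. The highest WAT samples were 3 and 4 of the controls and 1-2 and 3 of the knockouts, and both depot differences passed, at -3.49 ± 1.24 (SE; adjusted p = 0.0435) and -4.92 ± 1.34 (SE; adjusted p = 0.0135). Cr2, the complement receptor CD21 of B cells and follicular dendritic cells, was at -3.57, -4.36, 1.25 and 0.62 in WAT controls 1 to 4 and at 2.47, 2.13 and -4.06 in WAT knockouts 1-2, 3 and 4. Cr2 in BAT was at -4.68, -4.31, -3.92 and -4.30 in controls 1 to 4 and at -4.29, -3.98, -4.99 and -5.17 in knockouts 1 to 4. WAT control 2 lay among the BAT controls, and Cr2 passed in the knockouts only, at -4.79 ± 1.51 (SE; adjusted p = 0.0274), against -2.79 ± 1.39 (SE; adjusted p = 0.147) in the controls. Fcer2a, the low-affinity IgE receptor CD23, was at -2.94, -2.67, 1.99 and 1.48 in WAT controls 1 to 4 and at 3.22, 2.89 and -2.99 in WAT knockouts 1-2, 3 and 4. Fcer2a in BAT was at -3.32, -3.76, -4.04 and -3.64 in controls 1 to 4 and at -3.01, -3.45, -3.60 and -3.54 in knockouts 1 to 4. Fcer2a in WAT control 1 and knockout 4 lay just above BAT knockout 1, the highest BAT sample, and the difference passed in the knockouts, at -4.44 ± 1.40 (SE; adjusted p = 0.0279), and missed the threshold in the controls, at -3.15 ± 1.30 (SE; adjusted p = 0.0781). Cd37, a tetraspanin of mature B cells, was at -2.02, -2.0, 0.77 and 0.16 in WAT controls 1 to 4 and at 1.79, 1.59 and -2.83 in WAT knockouts 1-2, 3 and 4. Cd37 in BAT was at -3.90, -4.23, -3.81 and -3.71 in controls 1 to 4 and at -3.08, -3.07, -3.66 and -4.11 in knockouts 1 to 4. Cd37 was lower in every BAT sample than in every WAT sample of either genotype, with differences of -3.14 ± 0.88 (SE; adjusted p = 0.0139) in the controls and -3.66 ± 0.95 (SE; adjusted p = 0.0106) in the knockouts. Of the other surface genes, Cd79b (the partner chain of Cd79a), Ly6d and Cxcr5 (the receptor for Cxcl13) passed in both genotypes, with control differences of -4.70, -4.63 and -4.20. Cr2 was well above background on 1 of 4 BAT knockout arrays, against 4 of 4 arrays in each of the other groups.

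Regulators and signalling proteins inside B cells were lower in BAT as well, with Pax5 showing the least difference. Pou2af1, the octamer co-activator OCA-B, was at 0.03, -0.23, 3.74 and 2.97 in WAT controls 1 to 4 and at 5.16, 5.01 and -2.06 in WAT knockouts 1-2, 3 and 4. Pou2af1 in BAT was at -3.12, -3.27, -4.0 and -3.36 in controls 1 to 4 and at -2.46, -2.65, -3.65 and -2.97 in knockouts 1 to 4. Every BAT sample was below every WAT sample of its genotype, with a difference of -5.07 ± 1.33 (SE; adjusted p = 0.00942) in the controls, or 33.5-fold, and of -5.64 ± 1.43 (SE; adjusted p = 0.00944) in the knockouts. Pax5, the transcription factor that keeps B cell identity, was at -3.07, -4.88, -3.25 and -4.07 in WAT controls 1 to 4 and at -2.18, -1.97 and -3.70 in WAT knockouts 1-2, 3 and 4. Pax5 in BAT was at -4.81, -5.15, -4.46 and -4.99 in controls 1 to 4 and at -2.98, -4.05, -4.29 and -4.53 in knockouts 1 to 4. Pax5 was well above background on all 8 WAT arrays but on 1 of 4 arrays in each BAT group, its WAT samples overlapped with BAT, and neither depot difference passed, at -1.03 ± 0.46 (SE; adjusted p = 0.106) and -1.34 ± 0.50 (SE; adjusted p = 0.0572). Spib (an Ets family factor), Blk (a Src family kinase), Blnk and Bank1 (adaptors of receptor signalling) passed in both genotypes, with control differences of -4.27, -2.37, -2.92 and -3.17. Blk was well above background on 2 of 4 BAT control and 1 of 4 BAT knockout arrays. It was kept only through the white fat groups, so its calls are not taken as support for a lower level in BAT.

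Chains and co-receptors of the T cell receptor complex varied in how far the depots were apart, with the least distance between controls for Cd3e and Cd4. Cd247, the zeta chain of the receptor, was at -0.91, -1.07, 1.32 and 0.80 in WAT controls 1 to 4 and at 2.64, 2.33 and -0.50 in WAT knockouts 1-2, 3 and 4. Cd247 in BAT was at -2.14, -2.48, -2.73 and -2.56 in controls 1 to 4 and at -0.81, -1.53, -1.93 and -1.25 in knockouts 1 to 4. Every BAT sample was below every WAT sample of its genotype, with a difference of -2.51 ± 0.65 (SE; adjusted p = 0.00871) in the controls, or 5.71-fold, and of -2.87 ± 0.70 (SE; adjusted p = 0.00758) in the knockouts. Cd3e, the epsilon chain, was at -4.01, -3.65, -1.69 and -2.36 in WAT controls 1 to 4 and at -0.78, -0.83 and -2.98 in WAT knockouts 1-2, 3 and 4. Cd3e in BAT was at -3.03, -3.40, -3.17 and -3.33 in controls 1 to 4 and at -2.84, -3.53, -3.26 and -3.96 in knockouts 1 to 4. WAT controls 1 and 2 were the lowest WAT samples and lay below the BAT controls, so the groups overlapped, and the difference passed in the knockouts, at -1.87 ± 0.58 (SE; adjusted p = 0.0255), but not in the controls, at -0.31 ± 0.54 (SE; adjusted p = 0.716). Cd3g, the gamma chain, was at -1.44, -2.43, 1.85 and 1.10 in WAT controls 1 to 4 and at 2.95, 2.66 and -2.66 in WAT knockouts 1-2, 3 and 4. Cd3g in BAT was at -2.82, -3.07, -2.83 and -2.88 in controls 1 to 4 and at -1.92, -2.53, -2.74 and -3.09 in knockouts 1 to 4. The knockouts overlapped through WAT knockout 4, yet the difference passed there, at -3.55 ± 1.20 (SE; adjusted p = 0.0375), and missed the threshold in the controls, at -2.67 ± 1.11 (SE; adjusted p = 0.0802). Cd4, the co-receptor for class II molecules, was at -2.79, -3.94, -3.27 and -3.69 in WAT controls 1 to 4 and at -2.42, -1.92 and -3.52 in WAT knockouts 1-2, 3 and 4. Cd4 in BAT was at -3.88, -3.93, -3.84 and -3.98 in controls 1 to 4 and at -3.46, -3.52, -4.07 and -4.36 in knockouts 1 to 4. Cd4 spanned 2.03 over the WAT samples, the groups overlapped, and the difference passed only in the knockouts, at -1.23 ± 0.36 (SE; adjusted p = 0.0196), against -0.49 ± 0.33 (SE; adjusted p = 0.302) in the controls. Cd8a, the co-receptor for class I molecules, was at -2.11, -4.26, 2.41 and 1.88 in WAT controls 1 to 4 and at 3.67, 3.42 and -5.25 in WAT knockouts 1-2, 3 and 4. Cd8a in BAT was at -4.80, -4.30, -4.96 and -5.17 in controls 1 to 4 and at -2.98, -5.36, -4.39 and -3.95 in knockouts 1 to 4. Cd8a had the widest WAT range of the 35, at 8.92, and neither depot difference passed, at -4.29 ± 1.78 (SE; adjusted p = 0.0799) and -4.78 ± 1.92 (SE; adjusted p = 0.0759). Cd8a was well above background on 2 of 4 BAT control, 3 of 4 BAT knockout and 3 of 4 WAT knockout arrays. Of the other surface genes of T cells, Cd3d (the delta chain), Cd2 (an adhesion receptor), Cd5 and Cd6 (related inhibitory receptors) passed in both genotypes, with control differences of -4.07, -3.30, -3.74 and -3.63, and Cd27, a receptor of the TNF receptor family, passed in the knockouts only, at -3.76 ± 1.10 (SE; adjusted p = 0.0195).

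Kinases, factors and receptors of naive T cells had wide WAT ranges, apart from Il7r. Lck, the kinase that starts signalling at the receptor, was at -1.77, -1.58, 3.54 and 2.96 in WAT controls 1 to 4 and at 4.80, 4.50 and -2.48 in WAT knockouts 1-2, 3 and 4. Lck in BAT was at -3.84, -3.20, -3.26 and -3.22 in controls 1 to 4 and at -1.52, -2.48, -2.57 and -2.63 in knockouts 1 to 4. Every BAT control was below every WAT control, while WAT knockout 4 lay among the BAT knockouts, and the differences were -4.17 ± 1.48 (SE; adjusted p = 0.0438) and -4.57 ± 1.60 (SE; adjusted p = 0.0441). Zap70, the kinase recruited to the phosphorylated receptor chains, was at -1.54, -2.43, 1.29 and 0.60 in WAT controls 1 to 4 and at 2.56, 2.35 and -2.38 in WAT knockouts 1-2, 3 and 4. Zap70 in BAT was at -2.99, -3.15, -2.32 and -2.93 in controls 1 to 4 and at -1.48, -1.81, -2.63 and -2.86 in knockouts 1 to 4. The groups overlapped in both genotypes, and the difference passed in the knockouts, at -3.04 ± 1.07 (SE; adjusted p = 0.0456), but not in the controls, at -2.33 ± 0.99 (SE; adjusted p = 0.0882). Tcf7, which encodes the naive T cell factor TCF1, was at -3.21, -3.39, 1.36 and 0.61 in WAT controls 1 to 4 and at 2.73, 2.46 and -4.57 in WAT knockouts 1-2, 3 and 4. Tcf7 in BAT was at -5.79, -4.96, -5.27 and -5.93 in controls 1 to 4 and at -3.42, -4.21, -5.35 and -5.12 in knockouts 1 to 4. Tcf7 was not well above background on any of 4 BAT control arrays and was so on 1 of 4 BAT knockout arrays, which makes it at least 13.7-fold lower in BAT controls than in WAT controls, from measured means of -1.16 ± 2.50 (SD, n = 4) in WAT and -5.49 ± 0.45 (SD, n = 4) in BAT (limma adjusted p = 0.0322). That bound sets the WAT mean against the level at which probes of the BAT control arrays came well above background. The knockout difference was -4.73 ± 1.55 (SE; adjusted p = 0.0332). Tcf7 was kept by the filter only through the white fat groups, so its depot differences are described and not taken as support for a lower level in BAT. Ccr7, the receptor for Ccl19 and Ccl21 that guides cells into lymph nodes, was at -3.05, -2.35, 2.14 and 1.45 in WAT controls 1 to 4 and at 3.39, 3.11 and -3.82 in WAT knockouts 1-2, 3 and 4. Ccr7 in BAT was at -4.83, -4.27, -4.33 and -5.97 in controls 1 to 4 and at -3.28, -4.09, -3.87 and -4.0 in knockouts 1 to 4. All BAT controls were below all WAT controls, and BAT control 4 was the lowest sample, with differences of -4.40 ± 1.44 (SE; adjusted p = 0.0303) and -4.71 ± 1.56 (SE; adjusted p = 0.0344). Il7r, the receptor chain for the survival cytokine IL-7, was at -2.72, -3.61, -1.99 and -2.51 in WAT controls 1 to 4 and at -2.54, -2.05 and -2.79 in WAT knockouts 1-2, 3 and 4. Il7r in BAT was at -3.16, -3.26, -3.02 and -2.90 in controls 1 to 4 and at -2.77, -3.18, -3.29 and -3.94 in knockouts 1 to 4. This probe spanned 1.62 over the WAT samples and neither difference passed, at -0.38 ± 0.32 (SE; adjusted p = 0.412) and -0.84 ± 0.35 (SE; adjusted p = 0.0838). Lef1, a factor related to Tcf7, passed in the knockouts, at -4.37 ± 1.29 (SE; adjusted p = 0.0199), and not in the controls, at -2.62 ± 1.19 (SE; adjusted p = 0.109).

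The 4 NK and cytotoxic genes differed among themselves. Gzma, a granzyme of NK and cytotoxic T cells, was at 0.46, -1.95, -1.47 and -0.20 in WAT controls 1 to 4 and at -0.28, -0.44 and -2.49 in WAT knockouts 1-2, 3 and 4. Gzma in BAT was at -3.76, -3.41, -3.58 and -3.65 in controls 1 to 4 and at -2.48, -3.59, -3.86 and -3.61 in knockouts 1 to 4. Gzma was highest in WAT control 1, unlike the B and T cell genes, and was lower in BAT, with a difference of -2.81 ± 0.55 (SE; adjusted p = 0.00147) in the controls, or 7.02-fold, the smallest adjusted p of the 35, and of -2.31 ± 0.60 (SE; adjusted p = 0.0103) in the knockouts. Nkg7, a granule membrane protein of killer cells, was at -0.28, -1.02, 2.01 and 1.49 in WAT controls 1 to 4 and at 2.97, 2.71 and -1.19 in WAT knockouts 1-2, 3 and 4. Nkg7 in BAT was at -2.19, -1.77, -1.72 and -1.66 in controls 1 to 4 and at -0.46, -1.45, -1.30 and -1.79 in knockouts 1 to 4. BAT and WAT controls did not overlap, and both differences passed, at -2.38 ± 0.83 (SE; adjusted p = 0.0391) and -2.75 ± 0.89 (SE; adjusted p = 0.0315). Klrd1, the receptor chain CD94, was at -1.64, -1.24, 0.98 and 0.40 in WAT controls 1 to 4 and at 2.02, 1.74 and -2.42 in WAT knockouts 1-2, 3 and 4. Klrd1 in BAT was at -3.66, -3.08, -3.18 and -3.49 in controls 1 to 4 and at -2.01, -3.58, -3.15 and -2.83 in knockouts 1 to 4. Klrd1 also passed in both genotypes, at -2.98 ± 0.84 (SE; adjusted p = 0.0138) and -3.34 ± 0.90 (SE; adjusted p = 0.013), with overlap through WAT knockout 4 in the knockouts. Ncr1, the NK cell receptor NKp46, was at -1.70, -3.08, -2.88 and -2.92 in WAT controls 1 to 4 and at -2.49, -1.79 and -2.66 in WAT knockouts 1-2, 3 and 4. Ncr1 in BAT was at -2.67, -3.12, -2.83 and -2.52 in controls 1 to 4 and at -2.36, -2.67, -2.80 and -3.03 in knockouts 1 to 4. Ncr1 had the smallest WAT range of the 35, at 1.38, and its depot differences of -0.14 ± 0.30 (SE; adjusted p = 0.772) and -0.40 ± 0.32 (SE; adjusted p = 0.402) did not pass.

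Probes of 1 gene did not always give the same picture. Of the 35 genes, 11 had further probes that passed the filter, 13 in all, and the probe with the highest mean level was used. The other Il7r probe was at -2.52, -2.49, 0.54 and -0.10 in WAT controls 1 to 4, at 1.53, 1.11 and -3.46 in WAT knockouts 1-2, 3 and 4, and between -6.47 and -4.84 in BAT. It followed the other members over the WAT samples, and BAT minus WAT was -4.90 in controls and -5.61 in knockouts. This further Il7r probe was well above background on 8 arrays and was dimmest in BAT. Its depot differences are therefore described and not taken as support for a lower level in BAT. For Cd247 the other probes gave 0.33 and -0.88 in controls and -0.46 and -1.62 in knockouts, far less than the probe used. For Cr2 the other probe gave 0.65 and -0.66, for Cd22 -0.63 and -2.74, for Tcf7 -1.44 and -3.23, and for Cd6 -0.80 and -1.72. The further probes of Bank1, Cd37, Cd8a, Lef1 and Nkg7 were lower in BAT by at least 2 on the log2 scale in both genotypes. Those of Bank1 and Lef1 were well above background on 7 arrays each, and a further Cd8a probe on 8. The differences of these dim probes are likewise described and not taken as support.

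The GR knockout comparison in WAT asked whether lymphocyte genes differ between genotypes, and none of the 35 passed. In the mean 34 were higher in the knockouts and 1, Gzma, was lower, where 66.5% of all genes and probes tested were higher. The median log2 difference was 1.14, against 0.25 over all tested, and the smallest adjusted p was 0.26, for Cd3e. No member passed, where 0.0597% of all were called in either direction by limma, and at an unadjusted p under 0.05 there were 3 (Cd3e, Pax5 and Cd4), where 18.0% of all were. The groups overlapped for all 35, where 6.51% of all were higher without overlap.

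By role the median difference was 0.97 for the 9 B cell surface genes, 1.05 for the 6 inside B cells, 1.27 for the 10 T cell surface genes, 1.36 for the 6 inside T cells or of naive T cells, and 0.58 for the 4 NK and cytotoxic genes. Cd3e differed by 1.40 ± 0.58 (SE; adjusted p = 0.26), Pax5 by 1.20 ± 0.50 (SE; adjusted p = 0.26), Cd4 by 0.80 ± 0.36 (SE; adjusted p = 0.27) and Cd247 by 1.45 ± 0.70 (SE; adjusted p = 0.283). Ms4a1 differed by 0.57 ± 1.49 (SE; adjusted p = 0.81). Its knockout mean was 2.83 ± 4.31 (SD, n = 3) and its control mean 2.26 ± 2.06 (SD, n = 4), so the difference was well inside the spread of both groups. Lck differed by 1.49 ± 1.60 (SE; adjusted p = 0.565), Ccr7 by 1.35 ± 1.56 (SE; adjusted p = 0.59) and Cr2 by 1.69 ± 1.51 (SE; adjusted p = 0.494).

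The count in this comparison rested on a single sample. Without WAT knockout 4, 32 of the 35 passed in either direction, all of them as higher, where 36.8% of all genes and probes tested passed in either direction. The median difference of the members was 3.03. Blnk was then higher by 2.20 ± 0.45 (SE; limma adjusted p = 0.00333), Cd247 by 2.45 ± 0.57 (SE; adjusted p = 0.00652), Cd3e by 2.12 ± 0.52 (SE; adjusted p = 0.00816) and Cd79a by 2.39 ± 0.60 (SE; adjusted p = 0.00885). Gzma, Il7r and Ncr1 did not pass there either. The median was 0.15 without WAT knockout 1-2 and 0.25 without WAT knockout 3, and it was 0.65, 0.59, 1.77 and 1.52 without WAT controls 1, 2, 3 and 4, each with no member passing. These fits left the WAT knockouts with 2 samples where a knockout was left out.

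**Figure D5:**
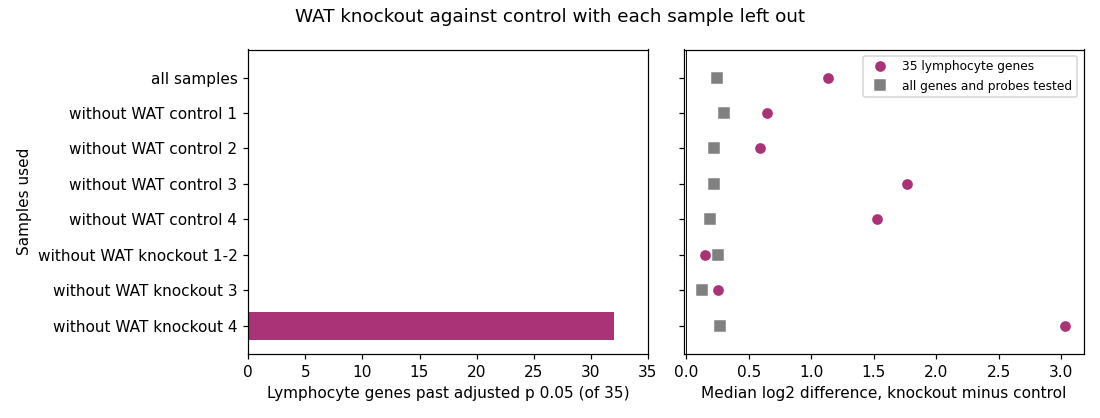
Left, the number of the 35 lymphocyte genes past an adjusted p of 0.05 (limma) in WAT knockouts against controls with all samples and with each WAT sample left out; right, the median log2 difference of the 35 genes (circles) and of all genes and probes tested (squares). The count is 0 in all cases except without WAT knockout 4, where it is 32.

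All 4 slides carried 1 array per group at a fixed position for that group, so position and group cannot be told apart. Within slides, the WAT knockout minus control median of the 35 was 4.56 on slide 1 (knockout 3 and control 1) and 4.91 on slide 2 (knockout 2 and control 2). It was -4.49 on slide 3 (knockout 4 and control 3) and 1.79 on slide 4 (knockout 1 and control 4). The sign therefore differed between slides, with 34 of 35 genes lower on slide 3 and 33, 35 and 33 higher on slides 1, 2 and 4. Knockouts 2 and 1, on slides 2 and 4, are the arrays averaged to 1 sample in the fits, so these slides do not count as 2 separate knockout samples.

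In BAT none of the 35 passed the comparison of knockouts with controls, where 0.0159% of all genes and probes tested were called in either direction, and none had an unadjusted p under 0.05 in limma, where 13.1% of all did. In the mean 31 were higher in the knockouts and 4 lower (Cr2, Cd3e, Cd2 and Il7r), where 60.1% of all were higher, with a median difference of 0.45 against 0.10. The smallest adjusted p was 0.437, for Pax5. The count of higher genes was 28 under quantile scaling and under the array median, and 35 under normexp correction, where the median of all tested was 0.34.

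Cd247, Lck, Ccr7 and Cd3d were higher without overlap, 4 of the 35, which is near the 9.36% of all tested that were, so no result about T cell genes is drawn from them. Cd247 differed by 1.10 ± 0.65 (SE; adjusted p = 0.502), Lck by 1.08 ± 1.48 (SE; adjusted p = 0.835), Ccr7 by 1.04 ± 1.44 (SE; adjusted p = 0.84) and Cd3d by 0.79 ± 1.41 (SE; adjusted p = 0.886). The Cd247 probes that were not used gave 0.12 and 0.29, with overlap between the groups. Ccr7 was well above background on 3 of 4 control and 4 of 4 knockout arrays. Tcf7 was well above background on 1 knockout array and on no control array, and its probes gave differences of 0.96 ± 1.44 (SE; adjusted p = 0.855) and, for the probe that was not used, -0.58. The BAT median was 0.22 without BAT knockout 1, and 0.12 without BAT knockouts 1 and 2 together, when 22 of 35 were higher. The arrays of BAT knockouts 1 and 2 were the dimmest of the 16, with a 75th percentile, to which levels are scaled, of 298.9 and 320.2 against 486.4 to 561.6 on the other BAT arrays, and the part of this in the result was not tested. The endothelial list was also highest in BAT knockouts 1 and 2, at 1.11 and 0.79 against 0.01 to 0.30 in the other BAT samples, and its part in the result was not tested. Within slides the BAT median was 0.97, 0.38, 0.00 and 0.18 on slides 1 to 4.

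The difference between the 2 genotype effects, BAT minus WAT, which is also the test of whether the depot difference depends on genotype, passed for no member, where 0.00398% of all genes and probes tested passed by limma, and for none at an unadjusted p under 0.05, where 10.4% of all did. It was below 0 for 34 of the 35, where 39.8% of all tested were above 0, with a median of -0.57 against -0.14 and a smallest adjusted p of 0.512, for Cd3e. Under normexp correction 6 were above 0. Without WAT knockout 4 there were 2 members past the threshold, Cd3e at -2.29 ± 0.67 (SE; adjusted p = 0.0376) and Blnk at -1.88 ± 0.58 (SE; adjusted p = 0.0448), where 16.2% of all passed. The median changed sign without WAT knockout 1-2, at 0.32, and without WAT knockout 3, at 0.18.

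Most lymphocyte genes outside the 36 were also lower in BAT in the mean. Between controls 19 of 20 measured B cell genes, 24 of 25 T cell genes and 15 of 16 NK and cytotoxic genes were lower, the exceptions being Ebf1, a factor of B cells and also of adipocytes, at 0.28 ± 0.17 (SE; adjusted p = 0.235), Klre1, an NK cell receptor chain, at 0.26 ± 0.30 (SE; adjusted p = 0.557), and Themis, a T cell signalling protein, at 0.16 ± 0.44 (SE; adjusted p = 0.823). Between knockouts all but Ebf1 were lower, and Ebf1 was at 0.03 ± 0.18 (SE; adjusted p = 0.939). Of 24 further B cell genes 20 were measured, and 10 passed as lower in BAT between controls and 16 between knockouts (limma), with medians of -2.65 and -3.46, where 14.3% and 13.9% of all genes and probes tested were called lower. They included the kinases Syk, at -3.37 ± 0.66 (SE; adjusted p = 0.00136) in the controls, and Btk, at -3.17 ± 0.83 (SE; adjusted p = 0.00953), and the class II chain partner Cd74, at -2.62 ± 0.55 (SE; adjusted p = 0.00224). Syk, Btk and Cd74 are not particular to B cells, as macrophages express them too, and all 13 macrophage genes also passed as lower in BAT controls. Of 25 further T cell genes 12 and 20 passed as lower, with medians of -2.71 and -3.37. Thy1, a surface protein of T cells and stroma, differed by -2.29 ± 0.54 (SE; adjusted p = 0.00494) in the controls, Gata3, a factor of T helper cells, by -2.40 ± 0.58 (SE; adjusted p = 0.00605), and Lcp2, an adaptor, by -2.96 ± 0.72 (SE; adjusted p = 0.00606). Of 16 further NK and cytotoxic genes 6 and 11 passed as lower, with medians of -1.47 and -1.80. With 1 sample left out the B, T and NK and cytotoxic counts were 4, 4 and 3 without WAT control 3 and 4, 4 and 4 without WAT control 4 in the controls, and 4, 4 and 1 without WAT knockout 1-2 and 4, 3 and 1 without WAT knockout 3 in the knockouts. In these fits 28.1%, 26.4%, 18.8% and 17.9% of all genes and probes were called in either direction. Klrc1, the partner of Klrd1 in an inhibitory receptor, was not well above background on any of 4 BAT control arrays and was at least 2.42-fold lower there (limma adjusted p = 0.00263). The filter kept Klrc1 only through other groups, so this difference is described and not taken as support. In the genotype comparisons 0 of these 61 genes passed in either depot, where 0.0597% of all in WAT and 0.0159% in BAT were called in either direction. At an unadjusted p under 0.05 there were 2, both T cell genes in WAT, where 18.0% of all were, and 0 in BAT, where 13.1% were. With 1 sample left out, up to 19 of 20 B cell, 24 of 25 T cell and 10 of 16 NK and cytotoxic genes passed as higher in WAT knockouts. Without WAT knockout 4, 36.8% of all were called in that comparison in either direction. In BAT 0 passed in each such fit.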

How the data were processed

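The 16 arrays are one-colour (Cy3). Per the file headers, the authors used Agilent Feature Extraction 12.0.0.7 to read them, and the deposited processed signal is an intensity, corrected for background and for trends over the array, with no step between arrays. Raw median spot and background intensity columns and, of another kind, flags of 0 or 1 were also deposited. The value table the authors deposited, an intensity too, matched the average processed signal of each probe to a relative 1e-04.

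Non-uniform and population outlier spots were dropped, repeated spots were averaged, and the log2 of the signal over the array's 75th percentile (298.9 to 1035) was taken. A probe was kept when well above background on at least 3 of 4 arrays of at least 1 group. Accessions matched to RefSeq genes (GRCm38.p6) gave names to 28223 of 41174 probes, and the probe with the highest mean level stood for its gene. Averaging WAT knockout arrays 1 and 2 was decided after the arrays were seen. One mean per group was fitted in limma 3.58.1 (R 4.3.3, package data.table, version 1.17.8; lmFit, eBayes) over 15 samples with 11 residual degrees of freedom. Tests were two-sided, p was adjusted by Benjamini-Hochberg across everything tested in a comparison, and the threshold was 0.05. The fit was tested on simulated data in which the changes were known.

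All members are named. Values in every sample are given for a written list of members and for up to 4 members past the threshold in a comparison by smallest adjusted p, and up to 3 genes of another list are named by that measure. The members and lists were chosen with earlier results of these data known. Alternatives changed the filter, scaling, background correction (normexp with offset 50, on median signals because the files used here hold no mean signal), source of values, probe rule, averaged arrays, samples in the fit, and blocks for slide and replicate number. Replicate numbers come from the labels.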

Additional observations from a re-analysis of the deposited data

Results flagged for a closer look

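In 117 groups of 4 samples, each sample was set against the others by Dixon's test at its 95% level, and 4 values, from 3 samples, stood apart. Chance gives about 1 in 20 groups, so 4 of 117 is no more than chance gives. The WAT knockouts, with n = 3 after averaging, were not screened, so WAT knockout 4 could not be flagged. Ncr1, the NK cell receptor NKp46, was high in WAT control 1, at -1.70 against -3.08 to -2.88 in the other WAT controls. Lck, the T cell kinase, was low in BAT control 1, at -3.84 against -3.26 to -3.20 in the other BAT controls. Lck was high in BAT knockout 1, at -1.52 against -2.63 to -2.48 in the other BAT knockouts. The level of the NK and cytotoxic genes was also high in BAT knockout 1, at -0.14 against -1.24 to -1.19.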

How the results depend on the processing

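Over 29 alternatives, no lymphocyte gene passed in either genotype comparison except without WAT knockout 4. The number of arrays and the signal over background in BAT limit what could be seen there. Leaving out 1 sample at a time gave 0 to 32 members called in the WAT genotype comparison (median 0.15 to 3.03), 0 to 0 in BAT (median 0.22 to 0.55), 0 to 2 in the interaction (median -2.53 to 0.32), 9 to 30 between depots in controls (median -3.56 to -2.60) and 1 to 33 in knockouts (median -6.21 to -3.25). In the depot fits with 1 sample left out, 26.4% to 42.2% of all genes and probes were called in either direction in controls and 17.9% to 45.6% in knockouts. The depot count in knockouts was 19 with normexp, 2 with only the groups compared and 17 without BAT knockouts 1 and 2, where 14.4%, 11.9% and 27.2% of all were called. In controls it was 12 with the slide block, 7 without WAT controls 1 and 4, and 14 without BAT knockouts 1 and 2, where 31.3%, 21.0% and 33.2% of all were called. Fewer samples or groups enter the fits that leave some out, and for normexp and the slide block the cause was not tested. Same-numbered samples did not deviate together between genotypes (correlations -0.47 to 0.07 in WAT and -0.04 to 0.17 in BAT). Between depots the correlations were 0.05 to 0.18 in controls and -0.26 to 0.10 in knockouts, not all above 0.1, so the labels' numbers were not taken to pair the samples. With the replicate block the counts were 0 and 0 for the genotype comparisons (medians 1.09 and 0.45), 17 in controls and 25 in knockouts between depots. Of all genes and probes 31.1% and 28.5% were called between depots there. In the genotype comparisons sign was followed gene by gene for the written list of members only. The following genes of that list, none of them called, changed sign. In BAT knockouts against controls, Cd22, Cd4 and Ncr1 were at -0.058, -0.076 and -0.067 with quantile scaling and at -0.057, -0.087 and -0.073 with the array median. Cr2, Cd3e and Il7r were at 0.43, 0.33 and 0.62 with normexp, and Cd22 at -0.19 with the mean over probes. Without BAT knockouts 1 and 2, Cd79a, Cd22, Cd3g, Cd4, Gzma and Ncr1 were at -0.26, -0.16, -0.012, -0.31, -0.13 and -0.13. Of all 35 members 22 were higher in that fit, against 31 in the main fit. In WAT, Gzma was at 0.64 without WAT controls 1 and 4. Cd4, called between depots in knockouts, was at 0.26 with the deposited value table. With 1 sample left out, genes of the written list that changed sign in WAT ranged from -0.72 to 3.06 (Ms4a1), -0.15 to 3.46 (Pou2af1), -0.39 to 4.07 (Cd8a), -0.051 to 0.49 (Il7r) and -0.68 to 0.43 (Gzma). In BAT they ranged from -0.043 to 0.35 (Cd79a), -0.13 to 0.22 (Cd22), -0.075 to 0.23 (Cd4), -0.085 to 0.37 (Gzma), -0.048 to 0.18 (Ncr1), -0.35 to 0.022 (Cd3e) and -0.39 to 0.003 (Il7r). Members outside the written list changed sign too. Of all 35 in WAT, 34 were higher in the main fit, 26 without WAT knockout 1-2 and 27 without WAT knockout 3.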

Other observations

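Genes of other immune and stromal lists also differed between depots, where 14.3% of all genes and probes tested were called lower in BAT between controls and 13.9% between knockouts. Of 12 genes of lymph node stroma and high endothelial venules, with Lta and Ltb of lymphocytes among them, 6 passed as lower in BAT between controls and 10 between knockouts (limma). Ccl21a, the attractant of Ccr7-bearing cells, differed by -4.79 ± 1.10 (SE; adjusted p = 0.00416) in the controls and by -6.95 ± 1.19 (SE; adjusted p = 0.000772) in the knockouts. Ccl19, its companion, differed by -4.93 ± 1.11 (SE; adjusted p = 0.00361) and -5.76 ± 1.19 (SE; adjusted p = 0.00283). Of 8 measured plasma cell genes 5 and 6 passed as lower, among them Sdc1, the surface proteoglycan CD138, at -2.48 ± 0.30 (SE; adjusted p = 3.11e-05) in the controls. Tnfrsf17, a survival receptor of plasma cells, was not well above background on any of 4 BAT control arrays and was at least 6.57-fold lower there (limma adjusted p = 0.00066). The filter kept Tnfrsf17 only through other groups, so this difference is described and not taken as support for a lower level in BAT. Without WAT control 3 or 4 the control counts were 4 for the lymph node list and 3 for the plasma cell list, and without WAT knockout 1-2 or 3 the knockout counts were also 4 and 3. In these fits, in that order, 28.1%, 26.4%, 18.8% and 17.9% of all genes and probes were called in either direction.

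Of 7 germinal centre genes 1 passed as lower in the controls, S1pr2 at -1.55 ± 0.27 (SE; adjusted p = 0.00057), with a list median of -0.09, where 14.3% of all tested passed as lower. In the knockouts 4 passed, and 1 without WAT knockout 1-2 or 3. Of 10 proliferation genes 9 passed as lower in each genotype, such as Mki67 at -3.90 ± 0.72 (SE; adjusted p = 0.000915) in the controls, and 1 passed as higher in the controls. The proliferation count in the knockouts was 6 without WAT knockout 1-2 or 3, and in the controls 7 without WAT control 1, 3 or 4. All 13 macrophage genes passed as lower in BAT controls and 9 of 13 in BAT knockouts, and 7 of 13 there without WAT knockout 1-2 or 3. In the WAT genotype comparison, where 0.0597% of all were called in either direction, 1 of 6 mast cell genes, the protease Cma1, fell by 3.30 ± 0.49 (SE; adjusted p = 0.0245), and 1 of 8 mesothelial genes, the factor Wt1, fell by 2.81 ± 0.45 (SE; adjusted p = 0.0409), while no gene of the lymph node, plasma cell, germinal centre, proliferation or macrophage lists passed there. With 1 sample left out the adjusted p ranged from 0.00018 to 0.168 for Cma1 and from 9.86e-05 to 0.269 for Wt1, and both calls were lost without WAT control 1, WAT control 4, WAT knockout 1-2 or WAT knockout 3. The call of Wt1 was also lost without WAT control 2 and without any of the 8 BAT samples. The absence of calls in the 5 lists also changed with 1 sample left out. Up to 10 of 12 lymph node, 5 of 8 plasma cell, 4 of 7 germinal centre and 9 of 10 proliferation genes then passed as higher in WAT knockouts. Up to 4 of 13 macrophage genes passed as lower there. Without WAT knockout 4, 36.8% of all genes and probes were called in either direction.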
